A study of Mus musculus with 2 samples.

Results

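The 6 genes described here encode the mouse MHC class II molecules and the proteins that load them with peptide: H2-Ab1, H2-Aa and H2-Eb1 (classical chains), Cd74 (the invariant chain), and H2-DMa and H2-DMb1 (the peptide editor). They were found by gene symbol among 32285 gene IDs, and all 6 were present in both libraries. The set was chosen with values of these libraries in view, namely the H2-Ab1 counts in germ cells of the Prm2 +/- library and its ratio between the genotypes, so those values are given as a description.

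The study counted RNA in single cells of whole mouse testis, in 1 library from Prm2 -/- mice, which lack protamine 2, and 1 library from Prm2 +/- mice, which carry 1 altered copy. Protamine 2 is a small basic protein that packs sperm DNA in place of histones. Per the labels, tubules were digested with collagenase and then Accutase, washed to deplete Leydig cells, and 15000 cells were loaded per library. The sources used here give no age, strain or number of pooled animals, nor which part of Prm2 was altered. With 1 library per genotype there was no replicate, no test and no p-value. A difference between genotypes cannot be told apart from a difference between these 2 animals, pools or preparations, and all intervals are 95% intervals for counting error only.

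MHC class II molecules present peptides from endocytosed protein to CD4+ T cells. An alpha and a beta chain pair in the endoplasmic reticulum around the invariant chain, which fills the groove and directs the complex to endosomes, where H2-DM exchanges the remaining invariant chain fragment for peptide. The genes are classically on in macrophages, dendritic cells and B cells under the co-activator CIITA, and testicular macrophages lie in the interstitium, outside the tubules that hold the germ cells.

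The Prm2 -/- library held 123588822 UMIs (counted RNA molecules) in 22885 cell barcodes, and the Prm2 +/- library 71364845 UMIs in 15210 barcodes, of which 88 barcode sequences occurred in both. After filters and doublet removal 18963 Prm2 -/- and 14576 Prm2 +/- cells remained in 22 clusters. Germ cells numbered 17292 in Prm2 -/- and 9861 in Prm2 +/-, somatic cells 1426 in Prm2 -/- and 1658 in Prm2 +/-, and immune cells 132 in Prm2 -/- and 60 in Prm2 +/-. The classes were named by scores of these same markers, so high markers in a class are no separate check of its name. Per class 8 to 12 markers were listed, and at most 1 of them failed to exceed the rest of the cells in either library. The interstitial-stromal-like cluster scored 3.25 for its own set and 3.00 for peritubular myoid markers, so that name is a close call. Prm2 itself stood at 13.2 CPM in elongating-spermatid-like cells of the Prm2 -/- library and 37580 CPM in those of the Prm2 +/- library. A cluster of 100 Prm2 -/- and 2993 Prm2 +/- cells, led by hemoglobin genes and with a low UMI count, stayed unnamed and was in no cell group.

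The 5 region genes are protein-coding genes of chromosome 17 (mm10): H2-DMa (ENSMUSG00000037649) at chr17:34119541-34139101, H2-DMb1 (ENSMUSG00000079547) at chr17:34153072-34160230, H2-Ab1 (ENSMUSG00000073421) at chr17:34257689-34269419 and H2-Eb1 (ENSMUSG00000060586) at chr17:34305867-34316674, all on the plus strand, and H2-Aa (ENSMUSG00000036594) at chr17:34282744-34287823 on the minus strand. Cd74 lies on another chromosome. Class II promoters are known for an X box followed by a Y box, so the windows from 250 bases before to 50 after the start (RefSeq, GRCm38.p6) are shown for 4 entries. Capitals mark an X half-site spelled GNAAC followed within 15 to 40 bases by a Y box spelled ATTGG, read on the gene strand; this spacing was chosen with the sequences in view.
H2-Aa (chr17:34287774-34288073, minus strand): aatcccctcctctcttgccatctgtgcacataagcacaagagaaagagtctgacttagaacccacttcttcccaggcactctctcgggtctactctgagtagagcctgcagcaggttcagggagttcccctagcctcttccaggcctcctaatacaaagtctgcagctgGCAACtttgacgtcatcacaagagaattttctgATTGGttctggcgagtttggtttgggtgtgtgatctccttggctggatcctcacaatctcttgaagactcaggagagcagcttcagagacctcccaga
H2-Eb1 (chr17:34305617-34305916, plus strand): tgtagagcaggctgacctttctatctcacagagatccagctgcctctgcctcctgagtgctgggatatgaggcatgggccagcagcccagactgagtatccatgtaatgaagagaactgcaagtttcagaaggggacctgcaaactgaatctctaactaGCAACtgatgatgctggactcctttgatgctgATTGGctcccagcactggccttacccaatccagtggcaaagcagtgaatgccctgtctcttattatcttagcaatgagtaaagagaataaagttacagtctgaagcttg
H2-DMb1 (chr17:34152941-34153240, plus strand): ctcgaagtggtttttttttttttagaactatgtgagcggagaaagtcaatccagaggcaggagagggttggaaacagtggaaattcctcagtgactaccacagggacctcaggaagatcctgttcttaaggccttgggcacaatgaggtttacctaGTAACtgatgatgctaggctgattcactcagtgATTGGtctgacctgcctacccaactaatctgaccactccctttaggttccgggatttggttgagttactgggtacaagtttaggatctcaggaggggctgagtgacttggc
H2-DMa (chr17:34122582-34122881, plus strand): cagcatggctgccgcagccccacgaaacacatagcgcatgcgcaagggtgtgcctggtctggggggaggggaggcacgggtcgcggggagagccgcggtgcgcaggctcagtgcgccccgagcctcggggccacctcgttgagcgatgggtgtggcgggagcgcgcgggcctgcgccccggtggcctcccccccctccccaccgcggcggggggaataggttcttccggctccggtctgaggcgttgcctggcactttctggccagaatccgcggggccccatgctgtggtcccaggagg
H2-Aa, H2-Eb1 and H2-DMb1 each held 1 such pair, with 28, 27 and 28 bases between the boxes. The X half-site began at -81 in H2-Aa, -91 in H2-Eb1 and -94 in H2-DMb1, counted from the start. The H2-DMa window shown, and the window of its other listed start, held none in these letters. The pair occurred in 2.07% of 32851 mouse promoters on the gene strand and in 4.23% on either strand. H2-Ab1 and Cd74 were not among the matched entries, which covered 4 of the 6 genes.

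Immune cells held the complete set. The gene of the invariant chain, Cd74 (ENSMUSG00000024610), lies at chr18:60803848-60812652 (mm10, plus strand). In this macrophage-like class, Cd74 stood at 3197 CPM (CPM: UMIs of the gene over all UMIs of the class in that library, scaled to counts per 1e+06; 740 UMIs) in Prm2 -/- and 3247 CPM (457 UMIs) in Prm2 +/-, a log2 ratio of -0.02 (interval -0.19 to 0.15; ratios are Prm2 -/- over Prm2 +/- throughout). H2-Ab1, the beta chain of I-A, stood at 972 CPM in Prm2 -/- and 1037 CPM in Prm2 +/- (log2 -0.09, -0.40 to 0.22). H2-Aa, its alpha chain, stood at 1672 CPM in Prm2 -/- and 1272 CPM in Prm2 +/- (log2 0.39, 0.14 to 0.66). The levels of Cd74 and H2-Ab1 thus differed by less than counting error between the libraries, and H2-Aa was higher in Prm2 -/- by more than counting error. H2-Eb1, the I-E beta chain, stood at 1633 CPM in Prm2 -/- and 917 CPM in Prm2 +/- (log2 0.83, 0.54 to 1.13). H2-DMa stood at 134 CPM (31 UMIs) in Prm2 -/- and 234 CPM (33 UMIs) in Prm2 +/- (log2 -0.81, -1.56 to -0.06). H2-DMb1 stood at 95.04 CPM (22 UMIs) in Prm2 -/- and 56.8 CPM (8 UMIs) in Prm2 +/-, with an interval that spans 0.

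None of the 6 genes differed 2-fold in immune cells, against 26.1% of 4818 genes past 2-fold in either direction in that class. The size rule for this background was at least 50 CPM in 1 library or at least 100 UMIs over both. The class held 231491 UMIs in Prm2 -/- and 140749 UMIs in Prm2 +/-, so the rule takes in genes with few UMIs. Counting error alone can carry such genes past 2-fold, so nothing is read from the comparison with 26.1%. The summed level of the 6 genes was 7702 CPM in Prm2 -/- and 6764 CPM in Prm2 +/- (log2 0.19, 0.07 to 0.30). This sum changed sign, to -0.20, when called doublets were kept, which put 186 Prm2 -/- and 62 Prm2 +/- cells in the class.

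Within the class, class II RNA was uneven among cells. The 113 Prm2 -/- and 54 Prm2 +/- cells led by macrophage markers (2 or more, and more than of any other leukocyte type) held 724 of 740 and all 457 Cd74 UMIs of their libraries. Their Cd74 level was 3655 CPM in Prm2 -/- and 3626 CPM in Prm2 +/-. The 12 Prm2 -/- and 5 Prm2 +/- cells led by T and NK cell markers held 1 Cd74 UMI and no chain UMI in Prm2 -/-, and 1 H2-Ab1 UMI and no other in Prm2 +/-. By bounds chosen after the values were seen, cells with 9 or more macrophage markers had a lower summed Cd74 level than cells with 2 to 8. Of cells with 9 or more of the 12 macrophage markers, 25 of 33 in Prm2 -/- and 17 of 27 in Prm2 +/- had no Cd74 UMI. Of cells with 2 to 8 of them, 16 of 80 in Prm2 -/- and 4 of 27 in Prm2 +/- had none. Summed Cd74 was 1103 CPM in Prm2 -/- and 1673 CPM in Prm2 +/- with 9 or more markers, and 5044 CPM in Prm2 -/- and 6360.5 CPM in Prm2 +/- with 2 to 8. The cells with 9 or more markers were the deeper ones, with median counts of 2131 UMIs in Prm2 -/- and 2774 UMIs in Prm2 +/-. A classical chain was counted in 72 of 132 Prm2 -/- immune cells (54.5%) and 33 of 60 Prm2 +/- immune cells (55%). Of these, 68 Prm2 -/- and 29 Prm2 +/- cells also held Cd74. The highest Cd74 count in a cell was 48 in Prm2 -/- and 56 in Prm2 +/-, in cells with 11 and 12 macrophage markers. The 10 highest cells carried 31.9% of Cd74 UMIs in Prm2 -/- and 59.96% in Prm2 +/-. At median depths of 1609 UMIs in Prm2 -/- and 2146 UMIs in Prm2 +/-, a cell without a class II UMI is not shown to lack the RNA.

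**Figure D1:**
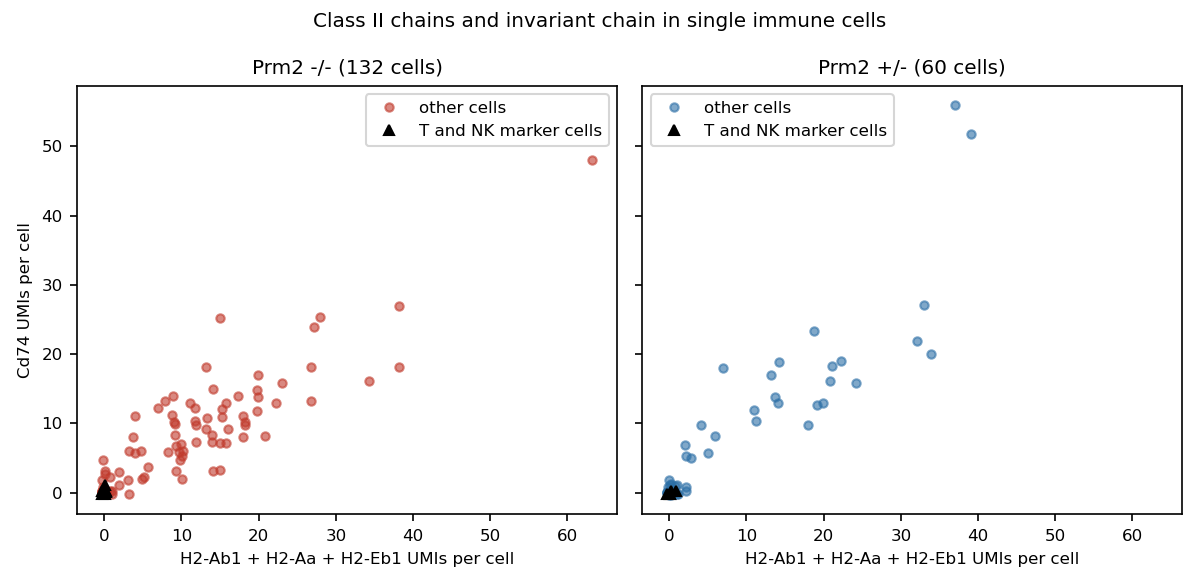
Each point is 1 immune cell, with the summed H2-Ab1, H2-Aa and H2-Eb1 UMIs on the x axis and Cd74 UMIs on the y axis, for Prm2 -/- (132 cells, left) and Prm2 +/- (60 cells, right). Points carry a small random offset; triangles mark cells led by T and NK cell markers, which lie at or next to 0 in both panels, and the highest Cd74 counts are 48 in Prm2 -/- and 56 in Prm2 +/-.

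In germ cells the set came apart, and only some of its RNAs were counted at more than trace level. H2-Ab1 was counted 1035 times in Prm2 -/- germ cells (10.98 CPM, 10.3 to 11.7) and 3756 times in Prm2 +/- germ cells (62.1 CPM, 60.2 to 64.2). The log2 ratio was -2.50 (-2.60 to -2.40), or 5.66-fold lower in Prm2 -/-. Among 17726 germ cell genes that met the size rule it ranked 28 from the lowest, and the median gene stood at 0.10. This contrast is the one the gene set was chosen on. Class II genes are highly polymorphic between mouse strains, and whether reads of both libraries were assigned to H2-Ab1 alike was not tested.

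H2-Ab1 was lower in Prm2 -/- in every germ cell class. In spermatogonium-like cells it stood at 2.24 CPM (5 UMIs) in Prm2 -/- and 11.3 CPM (12 UMIs) in Prm2 +/-. In early-spermatocyte-like cells, entering meiosis, it stood at 9.96 CPM in Prm2 -/- and 34.3 CPM in Prm2 +/-. In late-spermatocyte-like cells it stood at 6.98 CPM in Prm2 -/- and 74.4 CPM in Prm2 +/- (log2 -3.41, -3.66 to -3.18). Both libraries were lowest in the spermatogonium-like cells. In Prm2 -/- that interval (0.726 to 5.22 CPM) overlapped the one of germ cells of unresolved stage (3.69 to 6.51 CPM). In germ cells of unresolved stage, between late spermatocyte and round spermatid markers, H2-Ab1 stood at 4.95 CPM in Prm2 -/- and 67.4 CPM in Prm2 +/- (log2 -3.77, -4.21 to -3.35). In round-spermatid-like cells, which have finished meiosis, it stood at 8.03 CPM in Prm2 -/- and 58.7 CPM in Prm2 +/- (log2 -2.87, -3.10 to -2.64). In elongating-spermatid-like cells, which remodel their chromatin, it stood at 23.5 CPM in Prm2 -/- and 66.9 CPM in Prm2 +/- (log2 -1.51, -1.67 to -1.36). The Prm2 -/- library thus had its highest germ cell level in elongating-spermatid-like cells, while the Prm2 +/- library was high from late spermatocytes onward. In the Prm2 +/- library the counting intervals of late-spermatocyte-like cells (70.3 to 78.7 CPM), unresolved cells (61.9 to 73.2 CPM) and elongating-spermatid-like cells (63.0 to 71.1 CPM) all overlapped, and that of round-spermatid-like cells (54.2 to 63.4 CPM) reached into the unresolved and elongating ones. In the Prm2 -/- library those of early-spermatocyte-like (8.20 to 11.98 CPM), round-spermatid-like (6.97 to 9.21 CPM) and late-spermatocyte-like cells (5.96 to 8.13 CPM) overlapped from each to the next. All 16 germ cell clusters were lower in Prm2 -/-, with log2 ratios from -3.84 to -0.61. Their levels ran from 2.24 to 31.8 CPM in Prm2 -/- and from 11.3 to 95.5 CPM in Prm2 +/-, highest in the same elongating cluster in both.

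**Figure D2:**
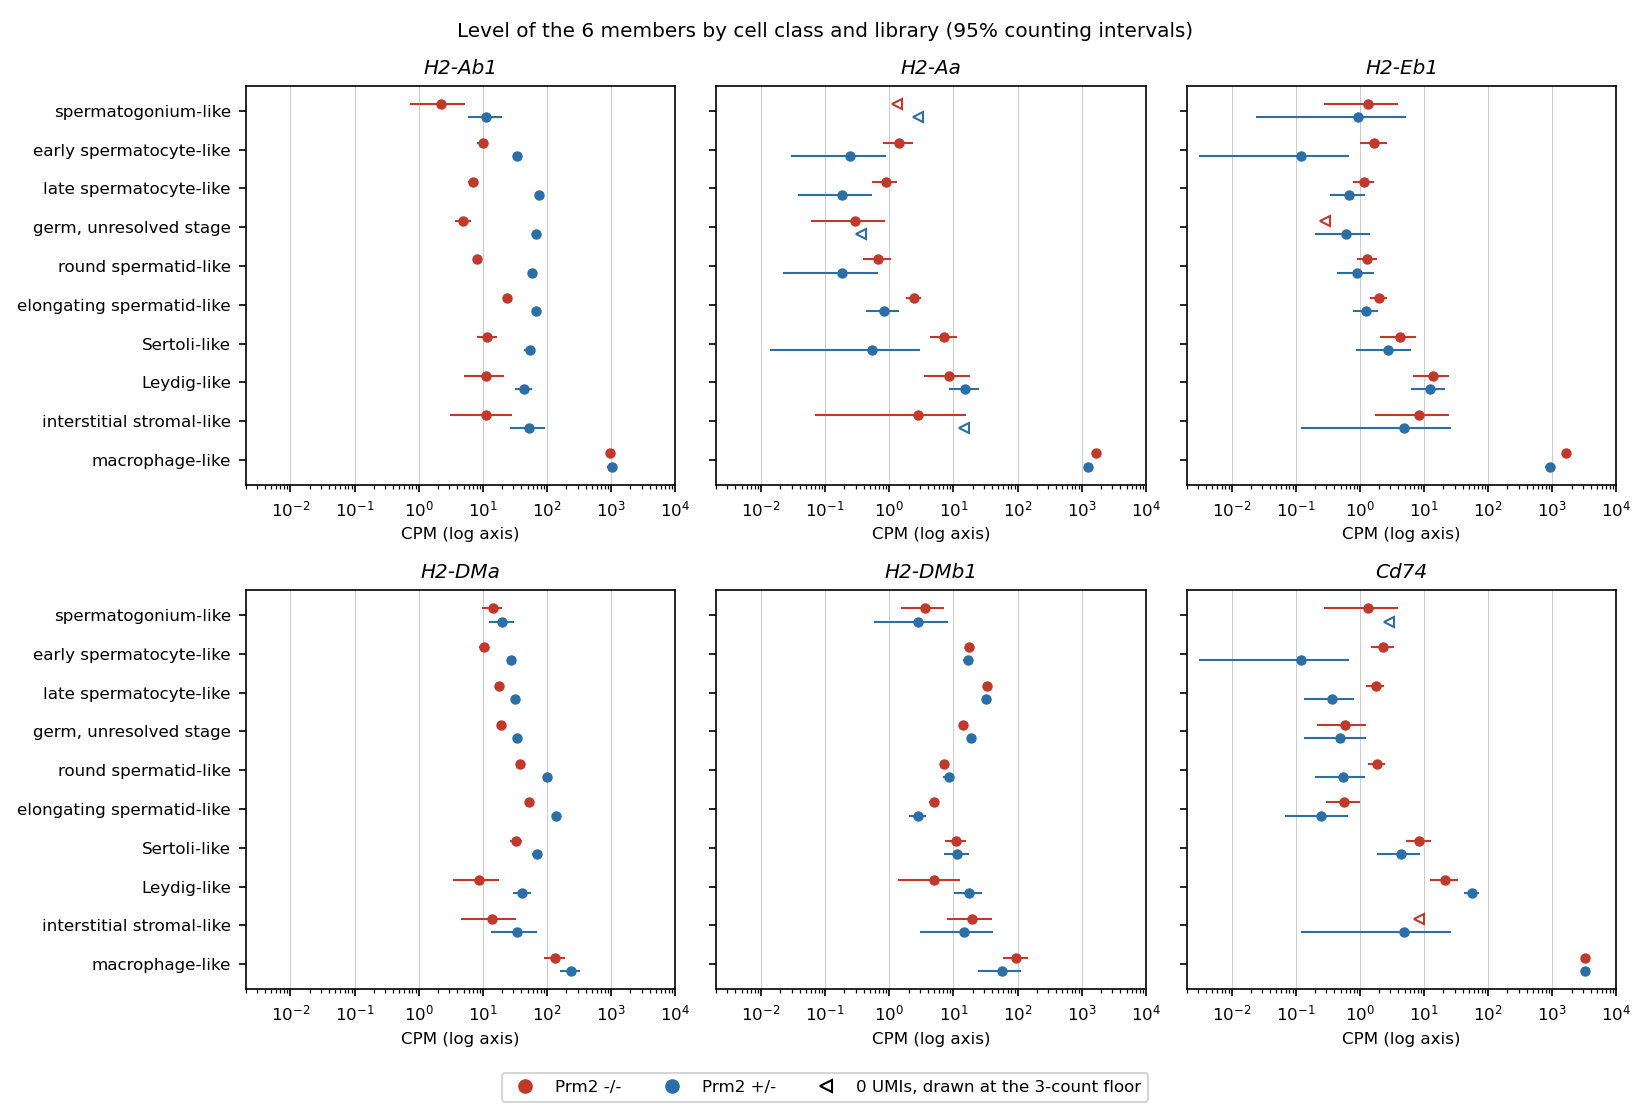
Level of each gene (CPM, log axis) by cell class, Prm2 -/- above Prm2 +/- within a class, with 95% counting intervals; open triangles are classes with 0 UMIs, drawn at the level of 3 counts. H2-Ab1 lies lower in Prm2 -/- in every class except for the overlapping macrophage-like points (972 CPM in Prm2 -/-, 1037 CPM in Prm2 +/-), and H2-Aa, H2-Eb1 and Cd74 lie far lower in germ cells than in macrophage-like cells in both libraries.

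The somatic cells of the same libraries differed in the same direction. H2-Ab1 stood at 11.6 CPM (44 UMIs) in Prm2 -/- and 50.3 CPM (152 UMIs) in Prm2 +/- somatic cells (log2 -2.12, -2.63 to -1.62). In Sertoli-like cells, the nurse cells of the tubule, it stood at 11.8 CPM in Prm2 -/- and 53.4 CPM in Prm2 +/-. In Leydig-like cells, which make testosterone, it stood at 11.1 CPM in Prm2 -/- and 43.8 CPM in Prm2 +/-, and in interstitial-stromal-like cells at 11.2 CPM (4 UMIs) in Prm2 -/- and 52.8 CPM (11 UMIs) in Prm2 +/-. In Prm2 -/- the counting intervals of these classes overlapped that of germ cells (10.3 to 11.7 CPM). In Prm2 +/- those of Sertoli-like (43.4 to 65.1 CPM) and interstitial-stromal-like cells (26.4 to 94.5 CPM) overlapped that of germ cells (60.2 to 64.2 CPM). The Leydig-like interval (31.7 to 59.0 CPM) and that of the whole somatic group (42.6 to 58.9 CPM) lay below it. Germ cell classes of Prm2 +/- themselves ran from 11.3 to 74.4 CPM. The unnamed cluster, with 217 H2-Ab1 UMIs in Prm2 +/-, stood at 62.9 CPM there.

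Cell by cell, the germ cell signal was thin. After thinning every cell to 1377 UMIs, 213 of 14043 Prm2 -/- germ cells held an H2-Ab1 UMI (1.52%, 1.32 to 1.73%) and 593 of 7890 Prm2 +/- germ cells did (7.52%, 6.94 to 8.12%), which left out 3249 Prm2 -/- and 1971 Prm2 +/- shallower cells. Without thinning the shares were 5.44% in Prm2 -/- and 25.5% in Prm2 +/-, at median depths of 3880 UMIs in Prm2 -/- and 4103 UMIs in Prm2 +/-. Sertoli-like cells were taken as a type that should lack class II RNA, which was not tested. Their thinned shares were 1.55% (0.709 to 2.92%, 9 of 582 cells) in Prm2 -/- and 5.23% (3.02 to 8.35%, 16 of 306 cells) in Prm2 +/-. Thinning left out 452 Prm2 -/- and 969 Prm2 +/- shallower Sertoli-like cells. Before thinning, the median depths of the class were 1614.5 UMIs in Prm2 -/- and 969 UMIs in Prm2 +/-. As a share, the germ cell value of either library was not above that of Sertoli-like cells beyond counting error. With so few positive Sertoli-like cells, a modest difference could not have been seen. Leydig-like cells of Prm2 +/- gave 1.22% (0.148 to 4.34%, 2 of 164 cells), below the germ cell interval. Interstitial-stromal-like cells of Prm2 +/- gave 4.69% (0.977 to 13.1%, 3 of 64 cells), which overlaps it. The Prm2 -/- shares were 1.71% (0.355 to 4.93%) in Leydig-like and 4.17% (1.15 to 10.3%) in interstitial-stromal-like cells. The part of free RNA in the germ cell share was not tested. Within the Prm2 +/- germ cells the thinned share differed between classes by more than counting error. It was 2.11% (0.577 to 5.30%) in spermatogonium-like, 3.81% (2.76 to 5.12%) in early-spermatocyte-like, 8.95% (7.82 to 10.2%) in elongating-spermatid-like and 9.51% (7.54 to 11.8%) in unresolved cells. Of the 941 Prm2 -/- germ cells with H2-Ab1, 863 held a single UMI and the highest held 8. Of the 2511 Prm2 +/- germ cells with H2-Ab1, 1712 held a single UMI, 269 held 3 or more and the highest held 11.

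H2-Ab1 and the RNAs it works with were not in the same proportion in all cell groups. In germ cells there were 7.61 H2-Ab1 UMIs per Cd74 UMI in Prm2 -/- (6.36 to 9.17) and 179 in Prm2 +/- (117 to 289). In immune cells there were 0.304 in Prm2 -/- and 0.319 in Prm2 +/-, and in somatic cells 1.13 in Prm2 -/- and 2.38 in Prm2 +/-. Within the Prm2 +/- library H2-Ab1 was also set against Prm2, a spermatid RNA counted in every class. H2-Ab1 UMIs per 1000 Prm2 UMIs were 1.78 in elongating-spermatid-like, 2.96 in spermatogonium-like, 4.38 (3.56 to 5.34) in Sertoli-like, 6.14 in Leydig-like, 8.43 in interstitial-stromal-like and 8.98 in early-spermatocyte-like cells. They were 10.7 in round-spermatid-like, 30.2 (28.5 to 32.0) in late-spermatocyte-like and 38.7 (35.5 to 42.2) in unresolved germ cells.

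Leukocyte markers did not move with it. Of 36 leukocyte marker genes, 33 had a UMI in germ cells of each library, and their summed level was 95.2 CPM in Prm2 -/- and 98.9 CPM in Prm2 +/- germ cells, against 12696 CPM in Prm2 -/- and 14103 CPM in Prm2 +/- immune cells. Cd209a, Cd79b and Nkg7 were at 0 in germ cells of both libraries. Ptprc, the pan-leukocyte CD45 gene, stood at 0.573 CPM in Prm2 -/- and 0.562 CPM in Prm2 +/- germ cells, and the macrophage gene C1qa at 0.446 CPM in Prm2 -/- and 0.496 CPM in Prm2 +/-. Without the 1341 Prm2 -/- and 1026 Prm2 +/- germ cells that held 2 or more leukocyte markers, the H2-Ab1 log2 ratio was -2.54. Some listed genes were well counted in germ cells. Cd3d stood at 35.2 CPM in Prm2 -/- and 33.1 CPM in Prm2 +/-, and Pax5 at 17.8 CPM in Prm2 -/- and 18.5 CPM in Prm2 +/-. Of elongating-spermatid-like cells, 13.7% in Prm2 -/- and 19.6% in Prm2 +/- held 2 or more markers. Germ cells with 2 or more markers are therefore not shown to carry leukocyte RNA.

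The partners of H2-Ab1 were near the floor in germ cells, and there they were higher in Prm2 -/-. H2-Aa had 108 UMIs (1.15 CPM) in Prm2 -/- and 20 UMIs (0.331 CPM) in Prm2 +/- (log2 1.79, 1.09 to 2.56). H2-Eb1 had 125 UMIs (1.33 CPM) in Prm2 -/- and 48 UMIs (0.794 CPM) in Prm2 +/- (log2 0.74, 0.25 to 1.25). Cd74 had 136 UMIs (1.44 CPM) in Prm2 -/- and 21 UMIs (0.347 CPM) in Prm2 +/- (log2 2.05, 1.39 to 2.79). The Cd74 counts were bunched in few cells: 11 Prm2 -/- germ cells with 3 or more Cd74 UMIs held 94 of the 136, and the cells with 2 or more leukocyte markers held 90. H2-Aa was more spread, with 108 UMIs in 79 Prm2 -/- germ cells, of which 51 UMIs lay in 49 elongating-spermatid-like cells. The cells with 2 or more leukocyte markers held 44 of the 108 H2-Aa UMIs, 66 of the 125 H2-Eb1 UMIs and 193 of the 1035 H2-Ab1 UMIs of Prm2 -/-. Without them the log2 ratio was 1.35 for Cd74, 1.48 for H2-Aa and -0.15 for H2-Eb1, so the direction of H2-Eb1 did not hold. The Cd74 ratio was 1.24 with doublets kept and 1.06 with cell groups taken from marker UMIs. H2-Ab1 and H2-Aa were counted together in 21 Prm2 -/- and 9 Prm2 +/- germ cells, and H2-Ab1 and Cd74 in 10 Prm2 -/- and 9 Prm2 +/- germ cells.

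Summed over somatic cells, Cd74 ran the other way, but not in each somatic class. It stood at 10.3 CPM in Prm2 -/- and 21.2 CPM in Prm2 +/- somatic cells (log2 -1.04, -1.66 to -0.45). Sertoli-like cells stood at 8.36 CPM (22 UMIs) in Prm2 -/- and 4.36 CPM (8 UMIs) in Prm2 +/- (log2 0.94, -0.28 to 2.32). Of the Cd74 UMIs the Leydig-like class held 17 of 39 in Prm2 -/- (21.1 CPM) and 55 of 64 in Prm2 +/- (56.04 CPM). Its log2 ratio was -1.41, and its UMIs lay in only 3 Prm2 -/- and 5 Prm2 +/- cells. Leydig-like cells with 2 or more leukocyte markers carried 16 of the 17 Prm2 -/- and all 55 of the Prm2 +/- UMIs. C1qa stood at 81.8 CPM in Prm2 -/- and 37.7 CPM in Prm2 +/- Leydig-like cells.

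The subunits of the peptide editor differed from each other in germ cells. H2-DMa, the alpha subunit, had 2871 UMIs (30.5 CPM) in Prm2 -/- and 4340 UMIs (71.8 CPM) in Prm2 +/- (log2 -1.24, -1.31 to -1.17). It was highest late in development, at 53.2 CPM in Prm2 -/- and 138 CPM in Prm2 +/- elongating-spermatid-like cells. Round-spermatid-like cells stood at 38.5 CPM in Prm2 -/- and 100.3 CPM in Prm2 +/-. Late-spermatocyte-like cells stood at 17.7 CPM in Prm2 -/- and 32.2 CPM in Prm2 +/-, and early-spermatocyte-like cells at 10.4 CPM in Prm2 -/- and 27.1 CPM in Prm2 +/-. All 16 germ cell clusters were lower in Prm2 -/-, by log2 ratios of -2.27 to -0.06. Sertoli-like cells also stood lower, at 33.1 CPM in Prm2 -/- and 70.3 CPM in Prm2 +/-.

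H2-DMb1, the beta subunit, had 1447 UMIs (15.4 CPM) in Prm2 -/- and 944 UMIs (15.6 CPM) in Prm2 +/- germ cells, a log2 ratio of -0.02 (-0.14 to 0.10). It peaked earlier, at 33.8 CPM in Prm2 -/- and 31.6 CPM in Prm2 +/- late-spermatocyte-like cells. Round-spermatid-like cells stood at 7.09 CPM in Prm2 -/- and 8.46 CPM in Prm2 +/-. Elongating-spermatid-like cells stood at 5.01 CPM in Prm2 -/- and 2.77 CPM in Prm2 +/- (log2 0.86, 0.34 to 1.40), in a class where the median of all genes was itself 0.52. Both libraries gave the same course, with the highest level in the same late-spermatocyte cluster. The 2 subunits were counted together in 175 of the 1159 Prm2 -/- germ cells with H2-DMb1, and in 219 of the 765 such Prm2 +/- cells. Over all germ cells, H2-DMa was counted in 2422 of 17292 in Prm2 -/- (14.0%) and 2828 of 9861 in Prm2 +/- (28.7%). The joint counts lie near these shares, so no link between the subunits is read from them.

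H2-DMb1 shares near-identical sequence with H2-DMb2, so its counts are uncertain, and H2-DMb2 itself (32 UMIs in Prm2 -/-, 92 UMIs in Prm2 +/- germ cells, log2 -2.16) is uncertain for the same reason. H2-DMa overlaps Brd2 and CR974462.4 on the opposite strand and CR974462.3 on its own strand, and H2-Eb1 overlaps Gm20513 on the opposite strand. Whether the counting used strand is not given in the sources used here.

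**Figure D3:**
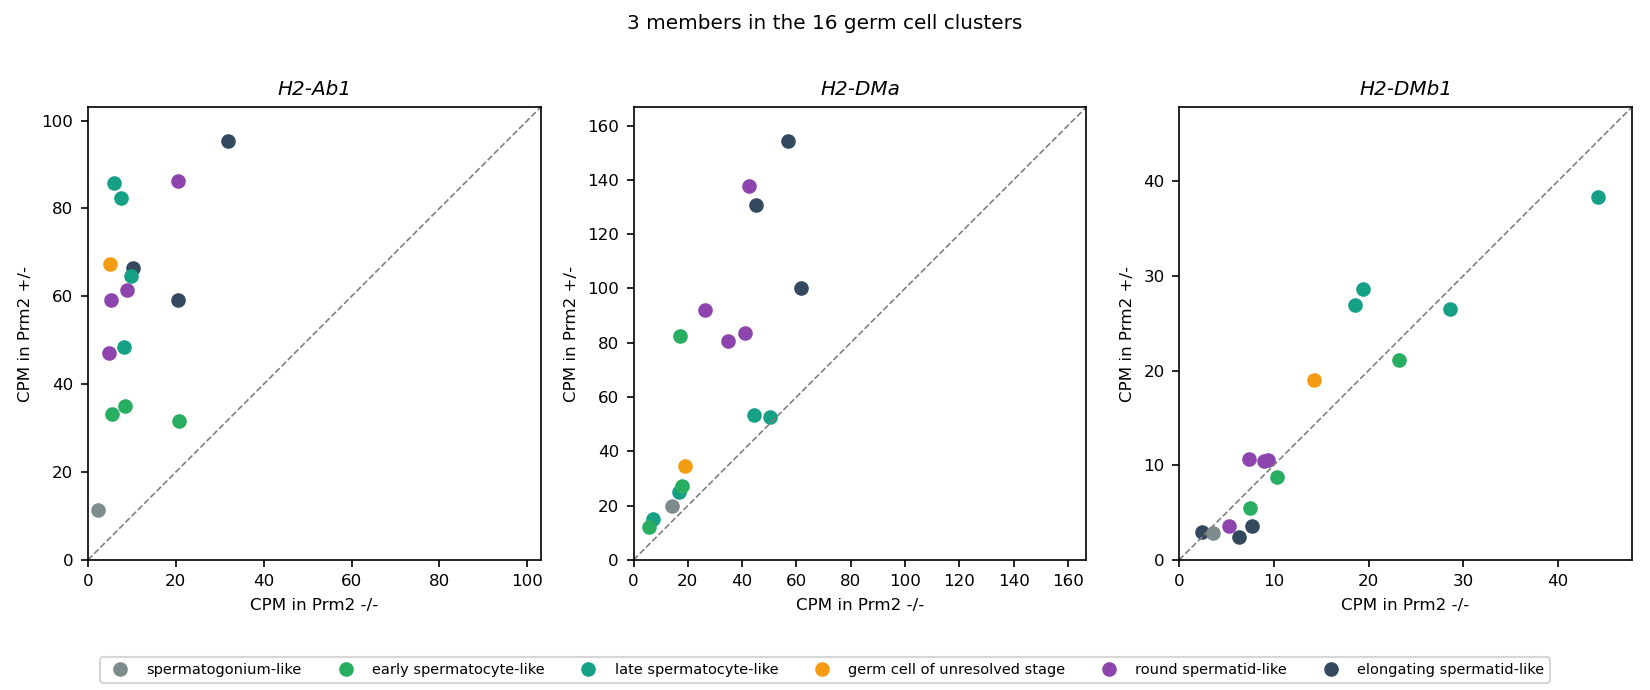
Level in Prm2 -/- (x axis, CPM) against Prm2 +/- (y axis, CPM) of H2-Ab1, H2-DMa and H2-DMb1 in the 16 germ cell clusters, coloured by class; the dashed line marks equal levels. All 16 points of H2-Ab1 and of H2-DMa lie above the line, and H2-DMb1 has 7 clusters lower and 9 higher in Prm2 -/-.

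Of the 6 genes, 4 were past 2-fold in germ cells, H2-Ab1 and H2-DMa lower and H2-Aa and Cd74 higher in Prm2 -/-. Of all 17726 germ cell genes under the size rule, 1.4% were 2-fold lower and 3.39% 2-fold higher, 4.79% in all. Because the set was chosen on this contrast, nothing is read from its share. In somatic cells H2-Ab1, H2-DMa (log2 -1.16) and Cd74 met the size rule and all 3 were 2-fold lower, against 0.968% of 8885 genes. Cd74 did so with 39 UMIs in Prm2 -/- and 64 UMIs in Prm2 +/-. H2-Aa (0.43), H2-Eb1 (0.15) and H2-DMb1 (-0.36) missed the rule in somatic cells, and their intervals spanned 0. The set was chosen on H2-Ab1 in these same libraries, so nothing is read from the somatic share either. The make-up of the class II RNA also differed between cell groups. H2-Ab1 was 18.1% of the 5722 UMIs of the 6 genes in Prm2 -/- germ cells and 41.1% of 9129 in Prm2 +/- germ cells. H2-DMa was 50.2% in Prm2 -/- and 47.5% in Prm2 +/- germ cells, but 1.74% in Prm2 -/- and 3.47% in Prm2 +/- immune cells. Cd74 was 41.5% in Prm2 -/- and 48.0% in Prm2 +/- immune cells, and 2.38% in Prm2 -/- and 0.230% in Prm2 +/- germ cells.

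**Figure D4:**
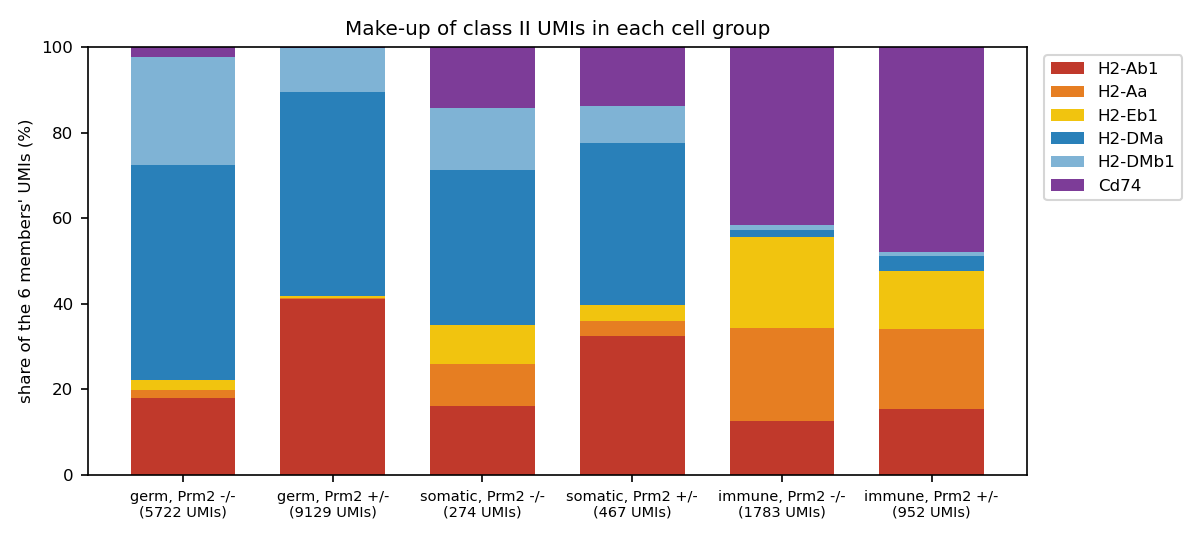
Share (%) of each gene in the summed UMIs of the 6 genes, by cell group, Prm2 -/- left of Prm2 +/- in each pair, with the UMI total under each bar. H2-DMa is the widest band in germ cells (50.2% in Prm2 -/-, 47.5% in Prm2 +/-) and Cd74 in immune cells (41.5% in Prm2 -/-, 48.0% in Prm2 +/-).

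Other genes of the pathway were read from lists. Of 22 class II partners and regulators, 15 met the size rule in germ cells, 2 were 2-fold higher and 1 lower in Prm2 -/-, with a median log2 ratio of 0.20 against 0.10 for all genes. The higher ones were the lysosomal proteases Ctsl (46.7 CPM in Prm2 -/-, 11.9 CPM in Prm2 +/-, log2 1.97) and Lgmn (4.52 CPM in Prm2 -/-, 1.19 CPM in Prm2 +/-, log2 1.92), and the lower one was H2-DMb2. Nfya, a subunit of the factor that binds the Y box, stood at 0.53. Ciita itself had 6 UMIs in Prm2 -/- and 1 UMI in Prm2 +/- germ cells, so no ratio is read from it. Of 18 class I and peptide loading genes, 12 met the rule and none passed 2-fold (median 0.13). Their widest ratios were those of Tapbpl (-0.66), H2-K1 (0.57), B2m (0.51) and Tapbp (0.41), which serve class I peptide loading. Of 16 interferon response genes, 3 met the rule and none passed 2-fold, among them Ifngr1 (0.98) and Ifngr2 (0.44), the interferon gamma receptor chains.

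The chromosomal neighbours of H2-Ab1 did not share its ratio as a block. Of 21 genes reaching within 150 kb of it, 8 met the size rule in germ cells, 4 of them members of the set, and 1 was 2-fold higher and 2 lower in Prm2 -/- (median 0.15). Besides the set these were H2-DMb2, Brd2, a chromatin reader (170 CPM in Prm2 -/-, 143 CPM in Prm2 +/-, log2 0.24), BC051142 (770.0 CPM in Prm2 -/-, 698 CPM in Prm2 +/-, log2 0.14) and Gm20513 (log2 0.17).

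**Figure D5:**
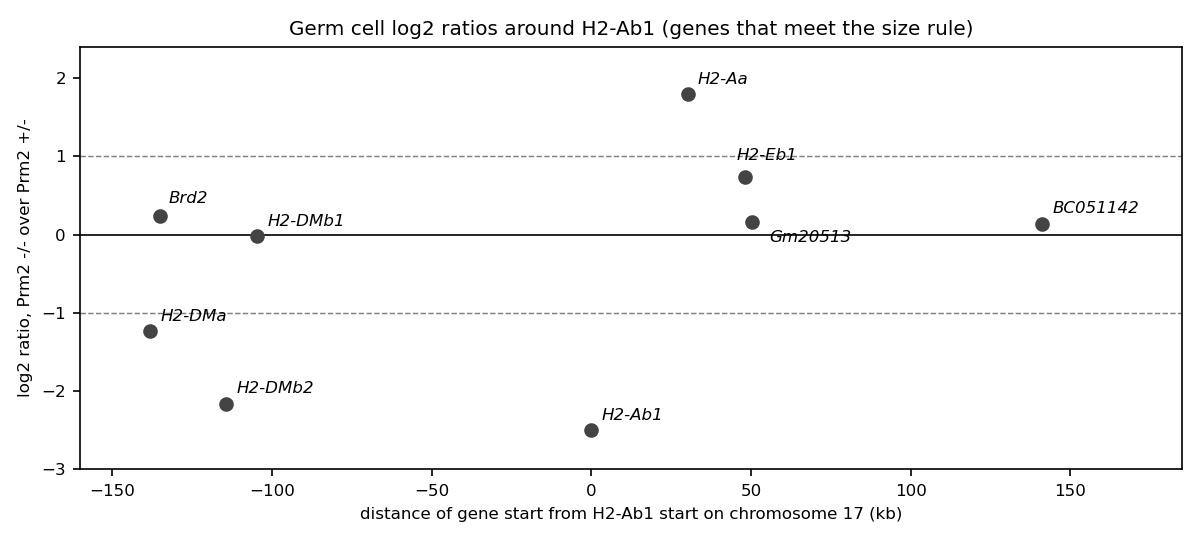
Germ cell log2 ratio (y axis, Prm2 -/- over Prm2 +/-) of H2-Ab1 and the 8 genes around it that met the size rule, by the distance of each gene start from the H2-Ab1 start (x axis, kb); dashed lines mark 2-fold. H2-Ab1 (-2.50), H2-DMb2 (-2.16) and H2-DMa (-1.24) lie below the lower line and H2-Aa (1.79) above the upper one.

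Likeness in pattern was taken as Pearson's r of log2(CPM + 1) over 23 points, each a cell class in 1 library with at least 20 cells, for 18448 genes. The points share 2 libraries and their depths, so r is a description. For H2-Ab1 the most alike genes included Cd72 (0.88), Afap1l1 (0.82), Hal (0.82) and Nfam1 (0.82), and H2-DMa stood at 0.85. For Cd74 they were Cd52 (0.97), Tyrobp (0.97), C1qc (0.97), Cybb (0.97) and Ccl8 (0.96), and for H2-Aa they included Cybb (0.98) and Plek (0.98). Likeness to H2-Aa was 0.97 for H2-Eb1, 0.96 for Cd74 and 0.68 for H2-Ab1. For H2-DMa the first was 1700017L05Rik (0.89) and for H2-DMb1 it was Vav1 (0.80), and the 2 subunits stood at -0.03 to each other.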

How the data were processed

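The authors deposited UMI counts for each gene and cell barcode; per the file headers the counter was Cell Ranger 7.1.0. Seurat 4.1.0, with no stated role, and mm10 are also named, per the submitters' processing notes. The genes described and all lists were chosen with earlier results of these data known. Positions are from GENCODE on mm10, promoters from RefSeq (GRCm38.p6).

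Barcodes needed 500 or more UMIs, 250 or more genes and a mitochondrial share of no more than 20%. Scrublet in scanpy 1.11.5 (0.8% expected doublets per 1000 barcodes) marked 3540 Prm2 -/- cells (15.7%) and 462 Prm2 +/- cells (3.07%), which were removed, so doublets may remain in the Prm2 +/- library. Cells were clustered together (2000 variable genes, 30 components, 20 neighbours, Leiden resolution 1) with 11 class II genes and protamine, transition protein, Xist, mitochondrial and Y genes left out. Clusters were named by marker scores; the scoring rule was set after seeing the data, so the names are rebuilt and called "like". Germ clusters whose best 2 germ marker sets lay within 0.25 were called of unresolved stage.

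UMIs were summed per class and library and scaled to CPM, with exact Poisson, conditional binomial and Clopper-Pearson intervals at 95%; the level of 0 UMIs is drawn at 3 counts. UMIs from free RNA are included. No count model was used as a main result; the ratio code was tested on simulated data. Genes named are the 6 in every class, up to 4 per list with the widest germ cell ratio under the size rule, and the 5 most alike genes, of which a few are not reported here; Ciita and the leukocyte markers were named outside this rule. Alternatives included TMM factors from edgeR 4.0.16, stricter filters, doublets kept, groups from marker UMIs per cell, equal cell weights, and other thinning depths.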

Additional observations from a re-analysis of the deposited data

Results flagged for a closer look

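Cd74 moved in opposite directions in 2 cell groups: its log2 ratio, Prm2 -/- over Prm2 +/-, was 2.05 in germ cells and -1.04 in somatic cells. The difference was not tested, since there is 1 library per genotype. Cells with 2 or more leukocyte markers held 90 of the 136 Prm2 -/- and 10 of the 21 Prm2 +/- Cd74 UMIs in germ cells, where such markers do not by themselves show leukocyte RNA. In somatic cells they held 31 of the 39 Prm2 -/- and 56 of the 64 Prm2 +/- Cd74 UMIs. Within the somatic group the Cd74 log2 ratio was -1.41 in Leydig-like and 0.94 (-0.28 to 2.32) in Sertoli-like cells.

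H2-DMb1 likewise stood at 0.86 in elongating-spermatid-like cells and -1.81 in Leydig-like cells, where it had 4 UMIs in Prm2 -/- and 17 UMIs in Prm2 +/-; this difference was not tested either.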

How the results depend on the processing

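Of 46 alternative values, 40 kept their direction and size. The H2-Ab1 germ cell log2 ratio lay between -2.58 (TMM factors) and -2.43 (doublets kept), except with each cell weighted equally, where it was -2.18. The share of germ cells with an H2-Ab1 UMI followed the thinning depth: thinned to 1000 UMIs it was 1.09% in Prm2 -/- and 5.45% in Prm2 +/-, and with no thinning 5.44% in Prm2 -/- and 25.5% in Prm2 +/-. The immune class II log2 ratio reversed to -0.20 with doublets kept; the cause was not tested. The somatic H2-Ab1 ratio lay between -2.33 and -1.95, and 4 of the 6 genes stayed past 2-fold in germ cells in all alternatives but the 1.5-fold threshold, which took in 5. Cd74 in germ cells lay between 1.06 and 2.11 and H2-Aa between 1.35 and 1.79. H2-Eb1 in germ cells also changed sign when groups came from marker UMIs per cell (-0.05). TMM factors shifted all ratios by -0.08 in germ, -0.21 in somatic and -0.05 in immune cells. Leaving out germ cells with 2 or more leukocyte markers, and counting the unnamed cluster as germ, were chosen after seeing the data.

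No paired analysis was possible because each genotype had 1 library, and for the same reason no library was left out. Ratios that rest on under 30 UMIs, such as those of H2-Aa and Cd74 in Prm2 +/- germ cells, are limited by depth.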
